A study of Mus musculus with 82 samples.

Results

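The replication-type histone genes are the members of the large histone clusters, taken here as every gene whose symbol starts with Hist1h, Hist2h, Hist3h or Hist4. The name rule found 67 such genes among the 21823 genes listed in all 3 count tables. By family they comprised 6 linker H1 genes, 18 H2A genes, 18 H2B genes, 12 H3 genes and 13 H4 genes. In the mouse annotation used here 54 of them lie on chromosome 13, 10 on chromosome 3, 2 on chromosome 11 and 1 on chromosome 6. Measured values played no part in choosing them.

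Histone proteins package DNA: pairs of H2A, H2B, H3 and H4 form the core particle around which DNA is wound, and H1 binds the linker between particles. The clustered genes are switched on mainly in S phase, when new chromatin needs new histones, and they lack introns in their usual form. Their mRNAs normally end in a short stem-loop, which is bound by the protein SLBP, instead of a poly(A) tail. A minority of transcripts run past the stem-loop and are polyadenylated, and in resting or differentiated cells such forms are known for several members, Hist1h1c and Hist1h2bc among them. The libraries described here were made from polyadenylated RNA, so the values below are for the histone transcripts that this chemistry captured and not for the total histone mRNA of a cell.

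The samples were ovalbumin-specific T cells of mouse, namely OT-I (CD8) and OT-II (CD4) cells, both carrying a transgenic T cell receptor. OT-I and OT-II cells were transferred together into C57BL/6 mice, and 4 days after an antigen dose they were sorted separately from pooled spleen and lymph nodes. The mice received pGal, which is ovalbumin carrying synthetic glycosylation, or 5 µg of plain OVA, or saline. In the prophylactic experiment the dose followed 1 day after transfer, each library held cells of 3 mice sorted into Trizol, and the libraries came in 2 batches. Mice of the therapeutic experiment were immunized under the skin with OVA in complete Freund's adjuvant the day after transfer, so their saline group had also met the antigen, and the dose followed a month later. Each therapeutic library held cells of 1 mouse sorted into buffer and snap frozen. The labels give 5 pGal, 5 OVA and 5 saline prophylactic OT-I libraries, and 5 pGal, 4 OVA and 5 saline prophylactic OT-II libraries. In the therapeutic experiment they give 10 pGal, 10 OVA and 8 saline OT-I libraries, and 10 pGal, 8 OVA and 7 saline OT-II libraries.

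Library totals ran between 21.2 M and 68.2 M estimated counts (M, times 1000000). In 42 of the 53 therapeutic libraries the coreceptor transcript, Cd4 or Cd8a, matched the labelled cell type, and in 11 it went against the label. The 42 matching libraries were used, which left 8 pGal, 8 OVA and 6 saline OT-I libraries and 8 pGal, 6 OVA and 6 saline OT-II libraries. Transcripts of 8 B cell marker genes summed to 38.9 to 6178 CPM (counts per 1000000 counts of the library, scaled with TMM factors) in the prophylactic libraries. In the 42 therapeutic libraries used they summed to 173 to 752 CPM. More than 100 CPM of the B cell receptor component Cd79a was held by 5 prophylactic libraries: OT-I saline batch 2 replicate 1, OT-I OVA batch 2 replicate 2, OT-II pGal batch 1 replicate 3, OT-II OVA batch 2 replicate 2 and OT-II saline batch 2 replicate 1. Among the therapeutic libraries used, it was exceeded by OT-II OVA replicate 2, OT-II pGal replicates 2, 3 and 8 and OT-II saline replicate 7. Their Cd79a levels were 109 to 116 CPM. In bulk samples, fewer cells of a type and less RNA per cell cannot be told apart. The therapeutic replicates are single mice and the prophylactic replicates are pools, so p-values measure the spread between mice in one experiment and between pools in the other.

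The stem-loop is shown first, since it stands in place of the poly(A) tail on which the libraries rely. A 16-base stem-loop was found in the annotated transcript of 46 of the 67 members, and 26 of them carried the same 16 bases, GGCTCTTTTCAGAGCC. Another 7 members carried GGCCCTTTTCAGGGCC and 6 carried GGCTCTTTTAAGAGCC. The sequences below are GENCODE M21 transcript sequence on GRCm38, read 5′ to 3′ on the gene's strand, with the stem-loop in capitals. They are those of the most abundant H2A transcript, 2 H4 genes, a linker histone, and 2 H2A genes that the treatment comparisons turned on.
Hist1h2ap, chr13:21833026-21833049, minus strand: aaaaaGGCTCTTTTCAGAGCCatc
Hist1h4m, chr13:21812124-21812147, plus strand: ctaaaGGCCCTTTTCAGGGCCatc
Hist2h4, chr3:96262934-96262959, minus strand: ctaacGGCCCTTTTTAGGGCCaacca
Hist1h1c, chr13:23739507-23739532, plus strand: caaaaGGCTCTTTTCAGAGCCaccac
Hist1h2ab, chr13:23751567-23751592, plus strand: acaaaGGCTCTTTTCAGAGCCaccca
Hist3h2a, chr11:58955167-58955192, plus strand: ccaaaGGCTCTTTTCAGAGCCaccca
The annotated Hist1h2ap and Hist1h4m transcripts stop 3 bases after the stem-loop and that of Hist1h2ab 11 bases after it. Those of Hist1h1c, Hist2h4 and Hist3h2a run on for 840, 1257 and 1643 bases, and each of these 3 extensions belongs to a single-exon model. Over all 82 libraries the 22 members whose models end within 60 bases of the stem-loop made up 52.8% of the summed histone CPM. The 24 whose models run further made up 37.5%, and the 21 with no stem-loop in the model 9.63%. Of the first class Hist1h2ap held 33.5% of the sum and Hist2h2aa1 9.1%. The median member had 1.40 CPM in the first class and 4.88 CPM in the second. Of the third, the models of Hist1h1b, Hist1h2ai and Hist2h2bb end at the stop codon, so no stem-loop could be seen there. Those of Hist1h2bc and Hist2h2be run on for 742 and 2192 bases after it. A level reported for the first class is still a level in a poly(A) library, and how those transcripts were captured was not tested.

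Windows of 300 bases around the RefSeq start (GRCm38.p6) were available for 62 members and were searched on both strands for 4 short motifs. CCAAT stood in 53 of the 62 windows, or 85.5%, against 37.4% of the 32851 windows of all genes, and its share was 25.0% among the H4 members. TATAAA was in 56.5% of the member windows against 13.6% of all windows. The octamer ATTTGCAT, which is bound by Oct factors, was found in 38.9% of H2A and 37.5% of H2B windows against 1.7% of all windows. Windows of divergent H2A and H2B partners can overlap, as for Hist1h2ae and Hist1h2bg. The same match can then count in both families. The H1 box AAACACA was present in 5 of the 6 H1 windows against 7.2% of all windows. The 150 bases upstream of 3 members that the results turn on show these arrangements, with motif matches on either strand in capitals.
Hist1h1b, chr13:21780626-21780775, minus strand: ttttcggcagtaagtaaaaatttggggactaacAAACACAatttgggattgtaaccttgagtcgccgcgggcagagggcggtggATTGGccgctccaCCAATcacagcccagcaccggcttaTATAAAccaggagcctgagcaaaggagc
Hist1h1c, chr13:23738657-23738806, plus strand: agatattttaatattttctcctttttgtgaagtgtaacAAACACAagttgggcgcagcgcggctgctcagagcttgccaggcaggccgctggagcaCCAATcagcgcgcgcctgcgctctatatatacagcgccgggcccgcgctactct
Hist3h2a, chr11:58954535-58954684, plus strand: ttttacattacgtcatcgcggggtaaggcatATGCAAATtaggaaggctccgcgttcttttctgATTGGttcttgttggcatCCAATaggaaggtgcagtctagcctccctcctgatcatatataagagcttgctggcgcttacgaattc
Hist1h1b and Hist1h1c, both linker histones, share the H1 box and the CCAAT element, and they passed the tests below in different comparisons. A motif match is a description of the letters and not evidence of a bound factor.

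One H2A gene carried much of the summed level. Hist1h2ap averaged 173 CPM over the 82 libraries, which was 33.5% of the summed histone CPM, and it varied between 23.4 and 865 CPM. Per kilobase of annotated transcript its mean level was 358 CPM, ahead of the H2A gene Hist2h2aa1 at 80.1, the H4 gene Hist1h4m at 31.4, the linker histone Hist1h1c at 24.6 and the H2A gene Hist1h2ae at 22.8 CPM per kilobase. Among the linker histones Hist1h1c was followed by Hist1h1e, at 12.5 CPM per kilobase. The mean CPM of the other linker genes was 5.55 for Hist1h1d, 4.68 for Hist1h1b, 1.57 for Hist1h1a and 0.0205 for the testis form Hist1h1t, which was listed at 0 in 61 of 82 libraries. In all, 29 members averaged under 1 CPM and 33 had counts in every library.

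Several members are near-copies whose counts are uncertain, because an estimated count is divided among transcripts that share sequence. Of the 31-base words of Hist1h2ap 93.4% also occur in Hist1h2ao, of those of Hist1h4m 91.7% occur in Hist1h4n, and of those of Hist2h2aa1 89.7% occur in Gm20634. In 11 members under 10% of the words were unique, and 3 had none, namely Hist1h2bq, Hist2h2aa2 and Hist2h3c1. By contrast 97.7% of the words of Hist2h4, 96.1% of those of Hist1h1b and 88.6% of those of Hist1h1c were unique. Hist3h2a had 67.9% unique words and shared 32.1% with Trim17, and Hist1h2ab shared 62.5% with Hist1h2ad.

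The summed level of all 67 members was compared by group without a test. In prophylactic OT-I cells it averaged 354 ± 76.3 CPM with pGal (SD, n = 5), 389 ± 120 with OVA (n = 5) and 280 ± 65.7 with saline (n = 5). In prophylactic OT-II cells it averaged 410 ± 89.5 CPM with pGal (n = 5), 533 ± 129 with OVA (n = 4) and 597 ± 168 with saline (n = 5). Saline had the lowest mean in OT-I cells and the highest in OT-II cells, and the ranges of the groups overlapped in each. In therapeutic OT-I cells the means were 608 ± 233 CPM with pGal (n = 8), 734 ± 420 with OVA (n = 8) and 717 ± 249 with saline (n = 6), and in therapeutic OT-II cells 450 ± 177 (n = 8), 291 ± 111 (n = 6) and 639 ± 259 CPM (n = 6) for the same treatments. Therapeutic OT-II cells given OVA had the lowest mean of the 6 therapeutic groups, and their highest library, at 445 CPM, exceeded the lowest saline library, at 421 CPM.

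**Figure D1:**
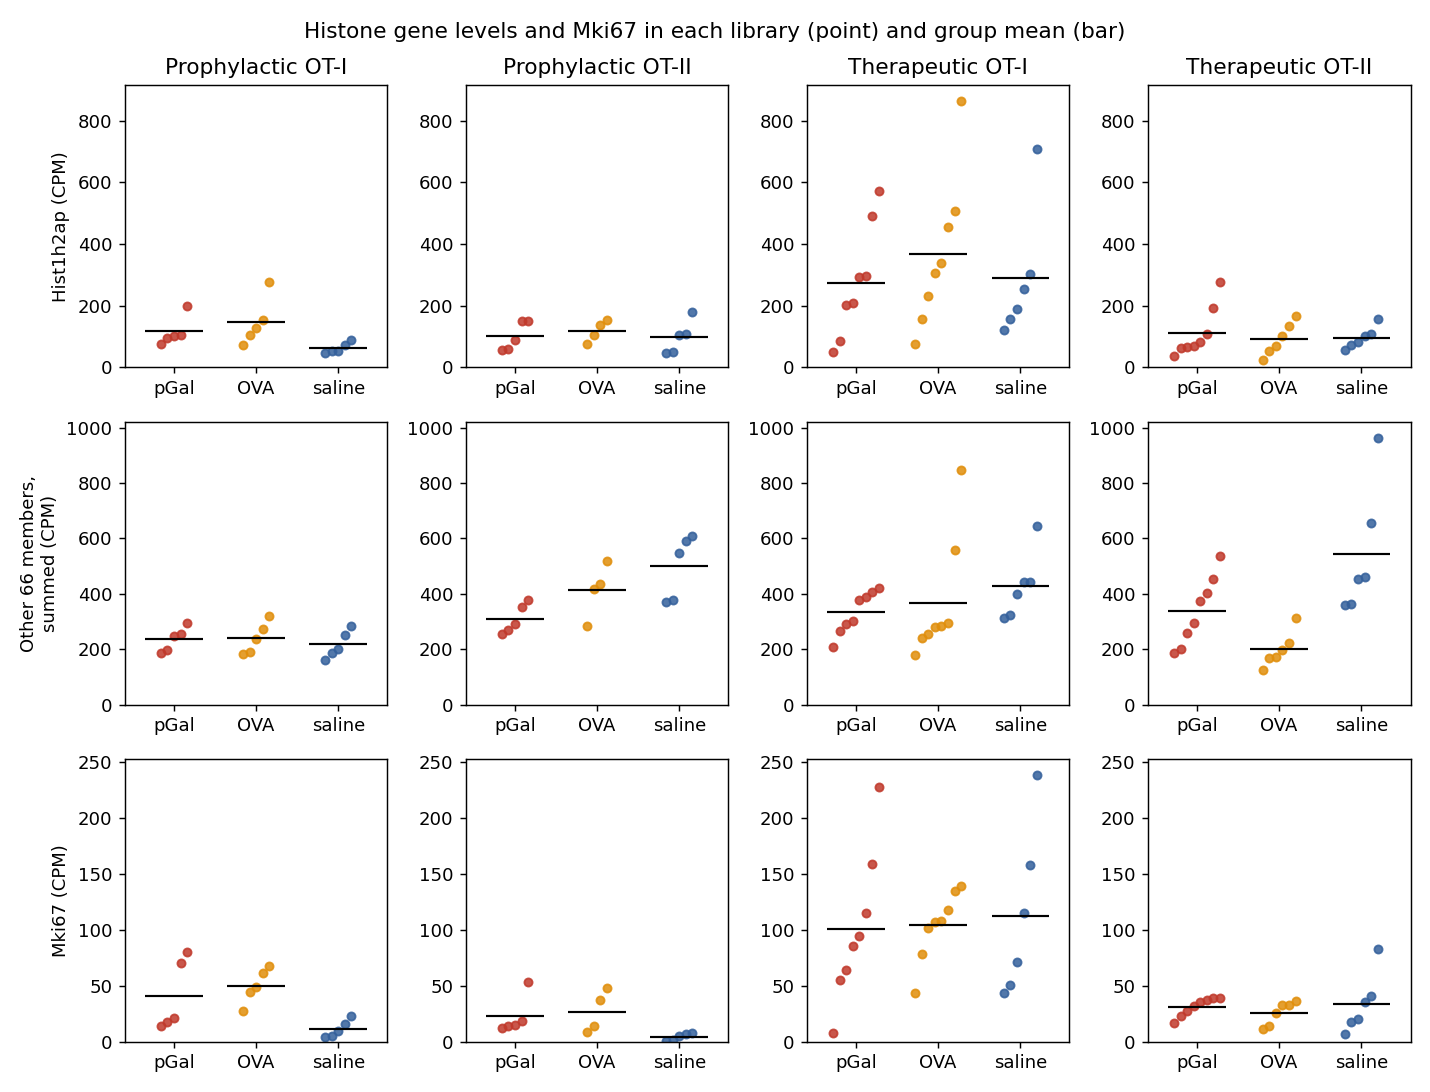
Levels in each library in CPM of Hist1h2ap (top row), of the other 66 histone genes summed (middle row) and of Mki67 (bottom row), in prophylactic OT-I, prophylactic OT-II, therapeutic OT-I and therapeutic OT-II cells. Points are libraries and bars are group means; with Hist1h2ap left out, the prophylactic OT-II means are 308 CPM with pGal, 414 with OVA and 499 with saline, whereas Mki67 has its lowest mean, 4.38 CPM, in the saline group.

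The median share of Hist1h2ap in the sum was higher in mice dosed with antigen than in saline mice. Its median share in prophylactic OT-I libraries was 29.2% with pGal, 32.6% with OVA and 22.6% with saline, and the lowest pGal and OVA libraries, at 26.5% and 27.4%, lay above the highest saline library at 25.4%. In prophylactic OT-II libraries the medians were 20.3% with pGal, 22.2% with OVA and 15.6% with saline. In the therapeutic experiment the medians for pGal, OVA and saline were 42.7%, 50.7% and 38.2% in OT-I cells and 23.6%, 29.2% and 13.8% in OT-II cells. Saline had the lowest median in each of these 4 sets, and OT-I cells had a higher median than OT-II cells of the same experiment and treatment in every case. The groups overlapped outside prophylactic OT-I cells: in prophylactic OT-II cells the shares ran between 18.2% and 34.1% with pGal, 19.6% and 24.6% with OVA, and 11% and 22.8% with saline. In therapeutic OT-I cells they ran between 19.7% and 58.4% with pGal, 11.9% and 64.1% with OVA, and 21.4% and 61.5% with saline, and in therapeutic OT-II cells between 11.7% and 37.8%, 15.9% and 42.9%, and 11% and 21.9% in the same order. These shares were not tested.

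In prophylactic OT-I cells, a small set of members was higher with OVA, a linker histone and H2A genes among them, while most members did not pass the test. With OVA against saline 6 of the 58 members tested rose and none fell (edgeR quasi-likelihood test, Benjamini-Hochberg adjusted p under 0.05 over all genes), where 5.39% of all genes tested passed in either direction and 4.12% upward. With pGal against saline 2 members rose, where 3.35% of all genes passed and 2.64% passed upward, so that the share of members was near that of all genes. The median log2 fold change of the members was 0.46 with OVA and 0.29 with pGal, against about zero over all genes. By family the medians with OVA were 0.56 for H1, 0.49 for H2A, 0.46 for H2B, 0.71 for H3 and −0.01 for H4 members. With pGal they were 0.50 for H1, 0.20 for H2A, 0.26 for H2B, 0.46 for H3 and −0.01 for H4 members. Both comparisons use the same saline libraries. Cd4 measured 161 CPM in OVA batch 1 replicate 1 and 206 CPM in pGal batch 1 replicate 2, against at most 39.9 CPM in the saline libraries. With Hist1h2ap left out, the histone sums of those OVA and pGal libraries were 320 and 296 CPM, the highest of their groups.

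Hist1h1b, a linker histone, measured 0.851, 1.69 and 4.02 CPM in the batch 1 pGal libraries and 3.69 and 7.02 CPM in those of batch 2. Its OVA values were 3.28, 6.08 and 2.34 CPM in batch 1 and 2.28 and 4.68 CPM in batch 2, and its saline values were 0.540, 0.517 and 0.303 CPM in batch 1 and 0.497 and 1.23 CPM in batch 2. All OVA libraries lay above all saline libraries, and a single pGal library fell inside the saline range. The log2 fold change was 2.74 with OVA (SE 0.50, adjusted p = 0.00453 by edgeR) and 2.44 with pGal (SE 0.49, adjusted p = 0.0166), and within batches it was 3.12 and 2.02 for OVA and 2.27 and 2.63 for pGal.

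Hist1h2ab, an H2A gene, showed the same with no overlap at all. It measured 1.52, 2.87 and 3.83 CPM in batch 1 and 3.16 and 5.63 CPM in batch 2 with pGal, and 3.45, 6.92 and 2.72 CPM in batch 1 and 3.09 and 5.11 CPM in batch 2 with OVA. With saline it measured 0.818, 0.886 and 0.664 CPM in batch 1 and 0.603 and 0.145 CPM in batch 2. The log2 fold change was 2.80 with OVA (SE 0.46, adjusted p = 0.00273 by edgeR) and 2.47 with pGal (SE 0.46, adjusted p = 0.0123). Without pGal batch 2 replicate 2, 1 member was left with pGal, Hist1h2ab, and without OVA batch 1 replicate 2 there were 4.

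The 2 abundant H2A genes that rose with OVA were Hist1h2ae and Hist1h2ap. Hist1h2ae measured 27.5, 59.0, 19.4, 13.5 and 21.7 CPM with OVA, and 9.22, 7.64, 6.50, 9.74 and 8.20 CPM with saline, in batch 1 then batch 2 order, and did not overlap (log2 fold change 1.78, SE 0.35, adjusted p = 0.00802 by edgeR). Hist1h2ap measured 155, 278, 129, 71.9 and 106 CPM with OVA and 87.9, 72.7, 54.3, 48.2 and 54.6 CPM with saline. The ranges of Hist1h2ap overlapped across the experiment but not within either batch, and the log2 fold change was 1.18 (SE 0.25, adjusted p = 0.0126). With pGal, the 5 Hist1h2ap values were 95.9, 107, 199.6, 77.5 and 103 CPM. They too lay above the saline values of their own batch, but Hist1h2ap did not pass the test against saline. Between pGal and saline Hist1h2ae and the H3 gene Hist1h3c did not overlap, and neither passed.

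The remaining members that rose with OVA were the H3 genes Hist1h3d and Hist1h3c, both at low levels. Hist1h3d measured 0.656, 0.530, 0.0312, 0.922 and 1.91 CPM with OVA and 0.0327, 0.103, 0.0569, 0.136 and 0 CPM with saline, so that a single OVA library lay within the saline range. Its log2 fold change was 3.29 (SE 0.87, adjusted p = 0.0381 by edgeR). Hist1h3c was at most 1.12 CPM with OVA and at most 0.163 CPM with saline (log2 fold change 2.07, SE 0.54, adjusted p = 0.0352). These 2 calls did not pass in DESeq2 or limma voom, nor in either batch alone. Between pGal and OVA no member of the 58 passed in OT-I cells, where 0% of all genes did, and 2 members had an unadjusted p under 0.05. DESeq2 and limma voom also called none.

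**Figure D2:**
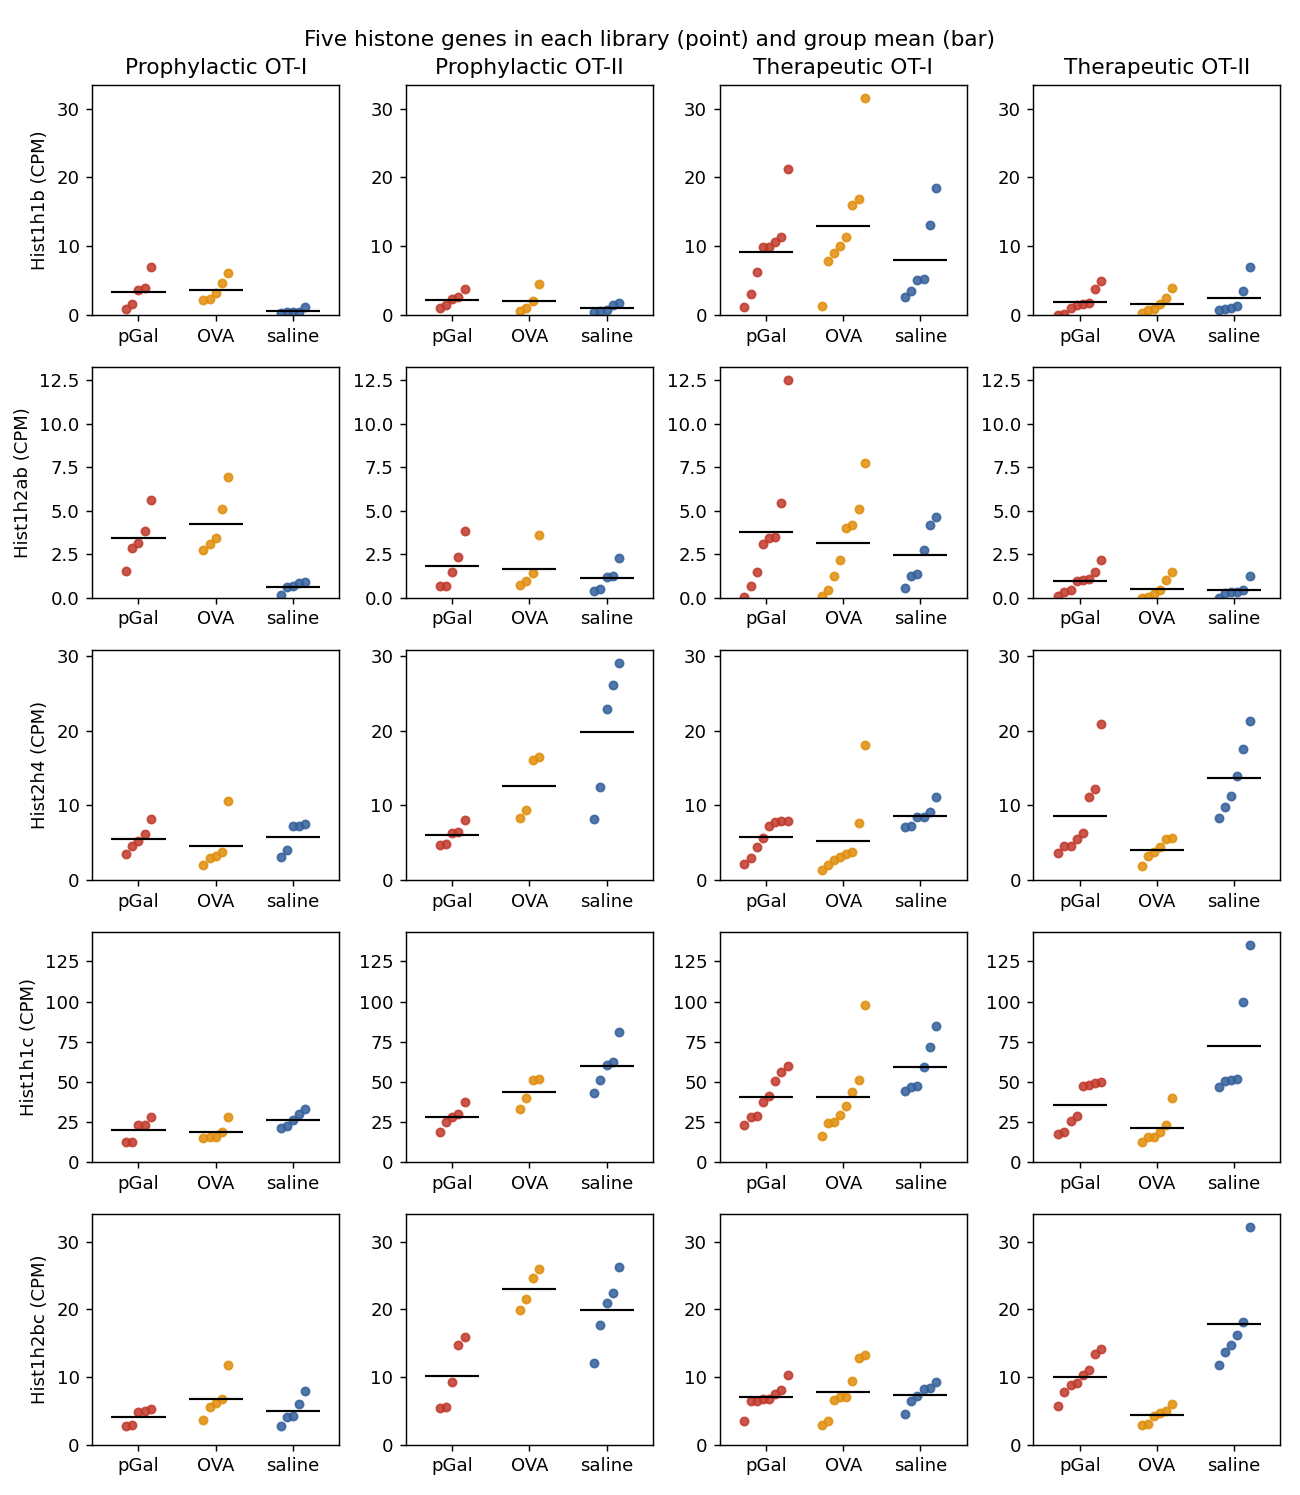
CPM in each library (points) and group mean (bars) of the linker histone Hist1h1b, the H2A gene Hist1h2ab, the H4 gene Hist2h4, the linker histone Hist1h1c and the H2B gene Hist1h2bc in the 4 sets of libraries. Hist1h1b and Hist1h2ab are higher with antigen in prophylactic OT-I cells, Hist2h4 and Hist1h1c are lower with pGal in prophylactic OT-II cells, and Hist1h2bc is lower with OVA in therapeutic OT-II cells.

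In prophylactic OT-II cells members fell with pGal. Against saline 7 of the 58 members tested fell and none rose, where 11.7% of all genes passed and 5.34% passed downward, and 23 members had an unadjusted p under 0.05. The median log2 fold change of the members was −0.59, against 0.04 over all genes. Of the 58 members 13 were positive, where 53.9% of all genes were. Those that fell were 2 linker histones, Hist1h1a and Hist1h1c, the H2A genes Hist3h2a and Hist2h2aa1, the H2B gene Hist1h2be and the H4 genes Hist2h4 and Hist1h4c. None of the 10 tested H3 genes passed.

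Hist2h4, an H4 gene, measured 4.66, 6.47 and 8.03 CPM in batch 1 and 4.85 and 6.29 CPM in batch 2 with pGal. With OVA it measured 16.5 and 16.1 CPM in batch 1 and 9.41 and 8.36 CPM in batch 2, and with saline 29.1, 22.9 and 26.2 CPM in batch 1 and 12.5 and 8.23 CPM in batch 2. Every pGal library lay below every OVA and saline library, and saline batch 1 stood well above saline batch 2. The log2 fold change of pGal against saline was −1.58 (SE 0.24, adjusted p = 0.000996 by edgeR), with −2.04 in batch 1 and −0.91 in batch 2. Against OVA it was −1.05 (SE 0.24, adjusted p = 0.0461).

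Hist3h2a, an H2A gene outside the large cluster, measured 22.7, 20.6 and 40.7 CPM in batch 1 and 33.3 and 36.8 CPM in batch 2 with pGal. With OVA it measured 66.4, 46.2, 54.5 and 49.0 CPM, and with saline 76.2, 67.8, 60.9, 75.7 and 61.0 CPM. The pGal libraries did not overlap either other group, and the batches were alike, with log2 fold changes against saline of −1.30 in batch 1 and −0.98 in batch 2 (−1.15 in both together, SE 0.18, adjusted p = 0.00138 by edgeR). Against OVA the log2 fold change was −0.81 (SE 0.19, adjusted p = 0.0489). Hist2h4 and Hist3h2a were the 2 members of 58 that passed between pGal and OVA, where 1.87% of all genes passed and 0.757% passed downward. Neither passed with the replicate number as a block. The count was 0 or 1 when any of 13 of the 14 libraries was left out, and it stayed at 2 only without pGal batch 1 replicate 3.

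The linker histone Hist1h1c measured 18.7, 25.3, 37.5, 28.4 and 29.9 CPM with pGal, 51.8, 39.8, 51.4 and 33.2 CPM with OVA, and 62.5, 81.2, 60.7, 51.3 and 42.9 CPM with saline. The pGal and saline libraries did not overlap (log2 fold change −1.08, SE 0.20, adjusted p = 0.00371 by edgeR). Hist1h4c measured 7.70, 6.88, 9.00, 5.88 and 9.33 CPM with pGal and 21.3, 17.4, 21.3, 14.4 and 11.0 CPM with saline, again with no overlap (−1.09, SE 0.23, adjusted p = 0.00812). Hist1h1a, a low-level linker histone, had a log2 fold change of −1.48 (SE 0.43, adjusted p = 0.0383), and its adjusted p was 0.102 with the replicate block. Hist1h2be and Hist2h2aa1 changed by −1.05 (SE 0.32) and −0.73 (SE 0.17) on the log2 scale.

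Batch weighed on these counts. The summed histone level of OT-II saline libraries was 652 to 790 CPM in batch 1 and 414 and 429 CPM in batch 2, whereas pGal libraries measured 310, 329 and 526 CPM in batch 1 and 443 and 440 CPM in batch 2. The sum was therefore lower with pGal in batch 1 and not in batch 2. In batch 1 alone 17 members fell, and in batch 2 alone, with 2 libraries a group, none passed. Markers of other cells were higher with pGal in the same fit, although none passed: all 8 B cell markers (median log2 fold change 3.07), all 4 NK cell markers (1.31) and all 6 myeloid markers (1.19). The summed B cell markers ran between 38.9 and 3360 CPM with pGal (median 62.7) and 48.6 and 677 CPM with saline (median 109), and the myeloid ones between 132 and 2214 CPM with pGal and 130.5 and 457 CPM with saline. The NK cell markers summed to 6.32 to 57.0 CPM with pGal and 3.94 to 16.1 CPM with saline. Leaving out those libraries with over 100 CPM of Cd79a also gave 17 members that fell. With OVA against saline in OT-II cells no member passed by edgeR, where 0.163% of all genes did, 3 had an unadjusted p under 0.05 and the members' median log2 fold change was −0.14. DESeq2 and limma voom called none either.

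In the same OT-II libraries Mki67, a marker of cycling cells, was 12.5, 14.3, 15.0, 53.2 and 18.5 CPM with pGal and 5.30, 0.591, 1.54, 7.09 and 7.39 CPM with saline. It rose with a log2 fold change of 2.43 (SE 0.47, adjusted p = 0.00474 by edgeR). Of 18 mitosis genes 4 rose, and of 21 DNA replication genes 3 rose, Tk1, Tyms and Rrm2, which supply nucleotides, and 1 fell, Pcna. Nasp, a histone chaperone, fell by 0.40 on the log2 scale (adjusted p = 0.00955), while the replication-independent linker histone H1f0 rose by 1.24 (adjusted p = 0.00403) and the centromeric histone Cenpa by 0.66 (adjusted p = 0.00337). Slbp did not pass the test in any treatment comparison of either experiment.

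In therapeutic OT-I cells no member passed in any treatment comparison. Of the 63 members tested, 1 had an unadjusted p under 0.05 for pGal against OVA, where 0% of all genes passed by edgeR, and 1 for pGal against saline, where 0% passed. For OVA against saline 2 had one, where 0.686% of all genes passed. DESeq2 and limma voom called no member either. The members' median log2 fold changes were −0.34, −0.48 and −0.04 in the same order, and all 13 H4 genes were negative for pGal against saline. The libraries varied widely, since Hist1h2ap had a lowest, median and highest value of 51.0, 251 and 572 CPM with pGal, 75.7, 322 and 865 CPM with OVA and 121, 223 and 710 CPM with saline.

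In therapeutic OT-II cells a minority of members fell with OVA against saline. Of the 56 members tested 11 fell and none rose, where 1.54% of all genes passed and 0.927% passed downward. The members' median log2 fold change was −1.50, against −0.07 over all genes. Of the 56 members 53 were negative, where 44.7% of all genes were positive. By family 5 of 12 H4 genes fell (Hist1h4h, Hist1h4m, Hist1h4n, Hist1h4c and Hist2h4), 3 of 16 H2B genes (Hist1h2bc, Hist1h2bg and Hist2h2bb), 2 of 14 H2A genes (Hist1h2ai and Hist2h2aa1), 1 of 5 linker histones (Hist1h1c) and none of 9 H3 genes. Hist1h4m and Hist1h4n are near-copies among which counts of shared sequence are divided, so their calls are not separate.

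Hist1h2bc, an H2B gene with a spliced transcript model, had the smallest adjusted p. Its lowest, median and highest values were 5.75, 9.70 and 14.2 CPM with pGal, 2.97, 4.47 and 6.02 CPM with OVA, and 11.8, 15.5 and 32.1 CPM with saline. OVA and saline did not overlap, and the highest OVA library stood just above the lowest pGal library. The log2 fold change of OVA against saline was −2.07 (SE 0.31, adjusted p = 0.00296 by edgeR).

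The linker histone Hist1h1c measured 17.8, 38.3 and 50.0 CPM (lowest, median, highest) with pGal, 13.0, 17.3 and 40.1 CPM with OVA and 47.1, 51.7 and 135 CPM with saline. All OVA libraries lay below all saline libraries, and the log2 fold change was −1.81 (SE 0.35, adjusted p = 0.0113 by edgeR). Hist1h4m measured 5.88, 12.3 and 29.0 CPM with pGal, 2.80, 4.95 and 12.7 CPM with OVA and 13.3, 19.4 and 65.7 CPM with saline, with a log2 fold change of −2.20 (SE 0.49, adjusted p = 0.0233). Among the members that passed, the largest fitted change was that of Hist1h4h, at −2.26 (SE 0.56, adjusted p = 0.0425), with medians of 4.80 CPM for pGal, 1.91 CPM for OVA and 8.44 CPM for saline. Its OVA and saline ranges overlapped.

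The dominant gene did not follow. Hist1h2ap had a lowest, median and highest value of 37.8, 76.4 and 275 CPM with pGal, 23.4, 86.1 and 167 CPM with OVA and 56.9, 90.8 and 155 CPM with saline. Its ranges lay over each other and it passed in no comparison of therapeutic OT-II cells, and the H2A gene Hist3h2a, with medians of 32.0, 26.9 and 50.8 CPM for pGal, OVA and saline, did not pass either although OVA and saline did not overlap. Of the cell cycle lists 1 gene fell, the thymidine kinase Tk1 (log2 fold change −1.47, adjusted p = 0.0482), and 2 of 21 DNA replication genes were positive. The change in Mki67 was −0.43 (SE 0.40) and did not pass.

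The count of 11 moved with the libraries and the method used. Saline replicate 1 held the highest level of many members, and without it 4 members fell, Hist1h1c, Hist1h2bc, Hist1h2bg and Hist2h2aa1. Other therapeutic libraries were not left out singly. With the replicate number as a block the count was 4, and it was 5 without the libraries over 100 CPM of Cd79a. Using all libraries as labelled 9 members fell. DESeq2 called 26 and limma voom 7.

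The summed histone level was higher in the therapeutic OT-II libraries with less Cd4. Under 500 CPM of Cd4 was held by 5 therapeutic OT-II libraries, pGal replicates 6, 9 and 10 and saline replicates 1 and 7, and their summed histone levels were 594 to 1118 CPM with a median of 729 CPM. The other 15 libraries, among them all 6 OVA libraries, measured 147 to 563 CPM with a median of 389 CPM. Without those 5 libraries 13 members fell with OVA against saline, 9 of them among the 11 above. In all 20 libraries Cd8a and Cd8b1 summed to at most 29.1 CPM. The part of the Cd4 level in the histone result was otherwise not tested.

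**Figure D3:**
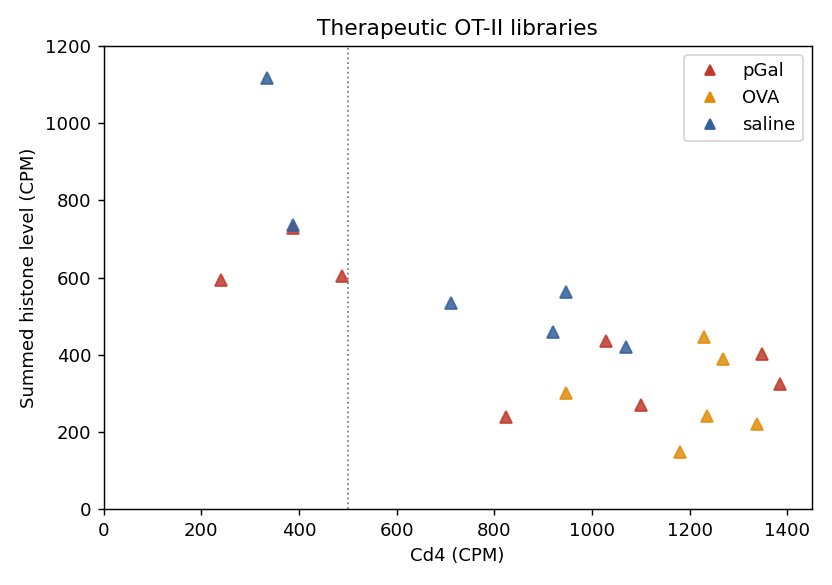
Summed level of the 67 histone genes (CPM, vertical) against Cd4 (CPM, horizontal) in the 20 therapeutic OT-II libraries, coloured by treatment; the dotted line marks 500 CPM of Cd4. The 5 libraries left of the line have sums of 594 CPM or more, and the 15 right of it have sums of 563 CPM or less.

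In therapeutic OT-II cells no member passed for pGal against OVA by edgeR, where 0% of all genes did. The smallest adjusted p of a member was 0.672. Unadjusted, 18 members had a p under 0.05, all higher with pGal. Of the 56 members 51 were positive, with a median log2 fold change of 0.83. Over all genes 57.1% were positive, with a median of 0.07. For pGal against saline no member passed, where 0.00702% of all genes did. There, 14 members had an unadjusted p under 0.05, all lower, and the members' median was −0.67, against 0.04 over all genes. DESeq2 called 1 member in each of these comparisons.

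The members that fell both with pGal against saline in prophylactic OT-II cells and with OVA against saline in therapeutic OT-II cells numbered 4. They were Hist1h1c, Hist1h4c, Hist2h2aa1 and Hist2h4, or 57.1% of the 7 and 36.4% of the 11. Of all genes tested in both comparisons 741 fell in the first and 129 in the second, and 37 fell in both, or 4.99% of the 741 and 28.7% of the 129. These comparisons share no library.

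**Figure D4:**
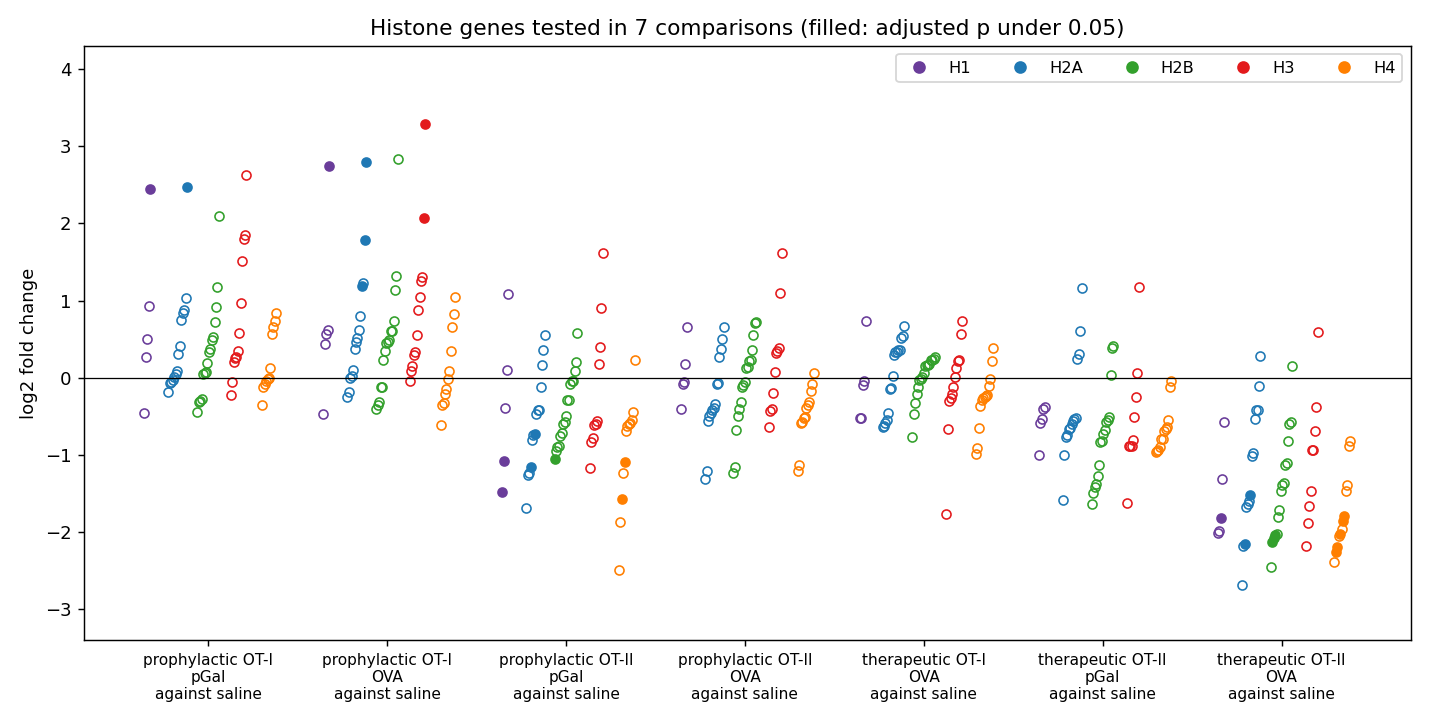
Log2 fold change of every tested histone gene in 7 comparisons, coloured by family, with filled points for an adjusted p under 0.05 and open points for the rest. Filled points lie above zero for OT-I cells given antigen in the prophylactic experiment. They lie below zero for prophylactic OT-II cells given pGal and for therapeutic OT-II cells given OVA.

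In the prophylactic experiment more members differed between the cell types in saline mice than in any treatment comparison. In prophylactic saline libraries 33 of the 62 members tested were lower in OT-I than in OT-II cells and none was higher, where 18.1% of all genes passed and 8.12% passed as lower in OT-I cells. The members' median log2 difference was −1.10, against −0.02 over all genes. Those lower in OT-I cells included 11 of 13 H4 genes, 8 of 15 H2A genes, 6 of 17 H2B genes, 4 of 12 H3 genes and 4 of 5 linker histones.

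Hist3h2a measured 26.1, 24.6 and 20.4 CPM in batch 1 and 27.0 and 21.1 CPM in batch 2 in OT-I saline libraries, against 76.2, 67.8, 60.9, 75.7 and 61.0 CPM in OT-II saline libraries. The groups stood far apart in both batches, and the log2 difference was −1.53 (SE 0.20, adjusted p = 3.41e-06 by edgeR). Hist2h4 measured 7.47, 7.19, 7.28, 4.07 and 3.07 CPM in OT-I cells and 29.1, 22.9, 26.2, 12.5 and 8.23 CPM in OT-II cells, with no overlap. The largest fitted differences were those of low-level genes, namely Hist1h2ad (−3.43, adjusted p = 0.00898), Hist1h3d (−3.38, adjusted p = 0.00391) and Hist1h4j (−3.37, adjusted p = 0.00224). Hist1h4j measured 0.0818, 0.177, 0.0948, 0 and 0.0726 CPM in OT-I cells and 0.945, 0.805, 1.07, 0.760 and 0.541 CPM in OT-II cells. Hist1h2ah also passed, but it was listed at 0 in all 5 OT-I saline libraries and was at most 0.0964 CPM in the OT-II ones, so no fold is given. In batch 1 alone 28 members passed, and in batch 2 alone 1 did, Hist3h2a.

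Cell cycle genes were higher in OT-I cells in the same comparison. Mki67 was higher in OT-I than in OT-II saline libraries, with a log2 difference of 1.35 (SE 0.41, adjusted p = 0.0230 by edgeR), and Slbp was higher by 0.38 (SE 0.12, adjusted p = 0.0302). Of 21 DNA replication genes 9 were higher in OT-I cells, the helicase subunit Mcm3 among them at 1.09 (SE 0.11), and 1 was lower. The replication-independent linker histone H1f0 was lower in OT-I cells, by a log2 difference of −1.97 (SE 0.39, adjusted p = 0.000559).

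OT-I and OT-II libraries can come from the same mice, and the labels do not say which do, so these tests and those of the response below treat the libraries as separate. In the therapeutic experiment the saline cell types differed in 3 of 63 members, where 9% of all genes passed, 4.42% as higher and 4.59% as lower in OT-I cells. Hist1h2ap was higher in OT-I cells, with medians of 223 CPM in OT-I and 90.8 CPM in OT-II libraries and a log2 difference of 1.60 (SE 0.53, adjusted p = 0.0483 by edgeR). The H2B genes Hist1h2bc (−1.27, SE 0.32, adjusted p = 0.00660) and Hist3h2ba (−1.12, SE 0.35, adjusted p = 0.0347) were lower in OT-I cells. None of the 3 passed with all libraries as labelled, or without the OT-II libraries with Cd4 under 500 CPM. Mki67 was higher in OT-I cells, with a log2 difference of 1.74 (SE 0.48, adjusted p = 0.0128).

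The response to treatment was compared between cell types with an interaction term. For pGal against saline in the prophylactic experiment 1 of 62 members passed, Hist2h4, whose response was higher in OT-I than in OT-II cells by 1.53 (SE 0.39, adjusted p = 0.0479 by edgeR), where 1.17% of all genes passed and 0.431% passed as higher. Hist2h4 measured 5.25, 8.22, 6.13, 4.6 and 3.44 CPM in OT-I cells given pGal, close to its OT-I saline values above. The interaction was 1.86 in batch 1 and 1.07 in batch 2, and no member passed when any 1 of 17 of the 29 libraries was left out. For OVA against saline in the prophylactic experiment no member passed, where 0.0337% of all genes did, and 7 had an unadjusted p under 0.05. DESeq2 and limma voom called none either.

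In the therapeutic experiment the response to OVA differed for 1 of 63 members, Hist1h2bc, by 2.14 (SE 0.44, adjusted p = 0.0414 by edgeR), where 0.121% of all genes passed and 0.0699% passed as higher. In OT-I cells Hist1h2bc had medians of 6.76 CPM with pGal, 7.03 CPM with OVA and 7.76 CPM with saline, all lower than in OT-II cells given saline. Another 19 members had an unadjusted p under 0.05 and all 20 had a higher response in OT-I cells. Over all genes tested 61.9% of the differences in response were positive. With all libraries as labelled no member passed. For the response to pGal no member passed and none had an unadjusted p under 0.05, where 0% of all genes passed, and DESeq2 and limma voom called none.

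The experiments differed in sorting, pooling and freezing as well as in immunization, and these cannot be told apart. Levels are therefore set side by side without a test. Markers of other cells also differed in OT-I saline libraries. Therapeutic and prophylactic median sums were 449 and 81.8 CPM for B cell markers and 67.1 and 11.1 CPM for NK cell markers. They were 171 and 164 CPM for myeloid and 77.4 and 205 CPM for erythroid markers. The part of other cells in the histone levels was not tested. In OT-I saline cells 19 of 63 members were higher in every therapeutic library than in any prophylactic one and none was lower, where 7.95% of all genes were higher and 9.04% lower without overlap. The difference was positive for 62 of the 63, with a median of 0.73 on the log2 scale, against 0.004 over all genes. The 19 included the linker histones Hist1h1b, Hist1h1c and Hist1h1d and the H2A genes Hist1h2ap and Hist3h2a. In OT-I cells given pGal the count was 1, Hist1h2bj, where 3.93% of all genes were higher without overlap, and with OVA it was 0, where 2.34% were.

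In OT-II cells none of 59 members separated in saline libraries, where 5.09% of all genes were higher and as many lower. With OVA 8 members were lower in every therapeutic than in any prophylactic library, where 6.69% of all genes were, and with pGal 1 was, Hist1h4d, where 2.51% were. Among the 8 were Hist2h4, Hist3h2a and Hist1h2bc.

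Levels were then set beside Mki67 within each set of libraries, after removing group and, in the prophylactic experiment, batch means on the log2 scale. In therapeutic OT-I cells the summed level followed Mki67, with Pearson's r 0.65 and Spearman's rho 0.62 over 22 libraries, and r was 0.62 without the 2 libraries farthest from the median of Mki67. Within its groups r was 0.81 (rho 0.55) with pGal, 0.71 (rho 0.67) with OVA and 0.50 (rho 0.49) with saline, and without 2 libraries each it was 0.86, 0.67 and −0.30. In therapeutic OT-II cells r was 0.13 and rho 0.08 over 20 libraries. The groups differed there, with r of 0.68 (rho 0.64) over the 8 pGal libraries, −0.03 (rho 0.03) over the 6 OVA libraries and −0.05 (rho 0.03) over the 6 saline libraries, and without 2 libraries each it was 0.62, −0.11 and −0.27. In prophylactic OT-I cells r was 0.30 and rho 0.31 over 15 libraries, with r of 0.07 without 2 of them, and in prophylactic OT-II cells r was 0.04 and rho 0.27 over 14. These correlations are descriptions without a test, since both measures come from the same libraries and share their depth and scaling.

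Over the 22 therapeutic OT-I libraries together, the relation was strongest in few members. Mki67 and Hist1h2ap had an r of 0.78 and a rho of 0.86, and 3 others came close, Hist1h2ae at r 0.78, Hist1h1b at 0.78 and Hist1h2ab at 0.77. These are 4 of the 6 members that rose with OVA in prophylactic OT-I cells. The median r over the 63 members was 0.19 against 0.03 over all genes tested, and 9 members exceeded 0.5, where 3.24% of all genes did. At the other end Hist1h4c had an r of −0.35, Hist2h2ab of −0.34 and Hist2h2aa1 of −0.29. Of the 4 members that fell in OT-II cells of both experiments, Hist1h4c and Hist2h2aa1 thus had negative values, and Hist1h1c and Hist2h4 had an r of 0.18 and 0.19. Within single therapeutic OT-I groups 23 of the 63 members exceeded 0.5 with pGal and 18 with OVA, where 12.2% and 4.66% of all genes did. With saline 10 members did, where 16.2% of all genes did.

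**Figure D5:**
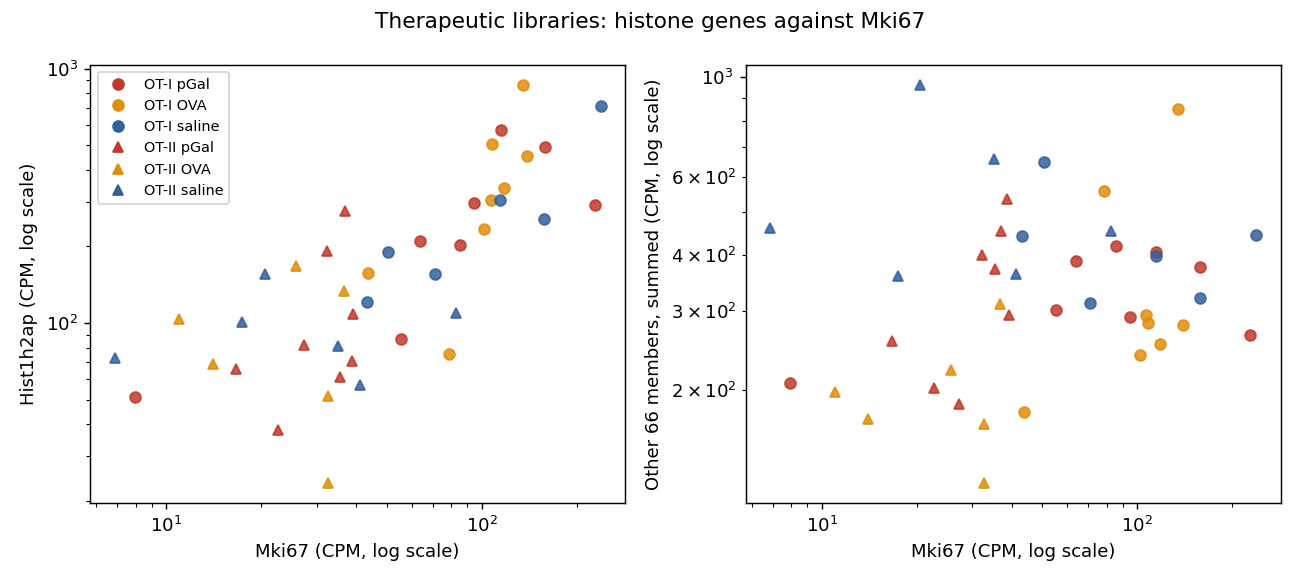
Hist1h2ap and the other 66 histone genes summed, each in CPM on a log axis, against Mki67 in CPM on a log axis, in the matching therapeutic libraries, with circles for OT-I and triangles for OT-II cells. Hist1h2ap goes up with Mki67 among the OT-I libraries, whose Mki67 values run between 7.95 and 239 CPM, and the other members show less of a slope.

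Of the mitosis genes 14 of 18 rose with pGal and 17 of 18 with OVA against saline in prophylactic OT-I cells, and of the DNA replication genes 2 and 7 of 21 did. Mki67 rose by 1.73 with pGal (SE 0.35, adjusted p = 0.0175 by edgeR) and by 2.44 with OVA (SE 0.36, adjusted p = 0.00165) on the log2 scale. Among 16 genes of histone supply and processing 2 rose with OVA, the chromatin assembly genes Chaf1a by 0.91 (adjusted p = 0.0330) and Asf1b by 0.83 (adjusted p = 0.0372), and none with pGal.

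Members in divergent pairs were also set side by side. In 13 pairs the members are transcribed away from each other from starts 176 to 660 bases apart, mostly an H2A with an H2B gene. For the 5 such pairs with both genes averaging at least 1 CPM the median correlation was 0.207 over 71 libraries, against 0.382 for 698 other pairs of members. Hist1h2ap and its partner Hist1h2br, 236 bases apart, had a correlation of −0.06. The pairs share sequence and libraries with other pairs, and no test was made.

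The 11 therapeutic libraries left out gave a further view of the coreceptor. In the 6 labelled OT-I that held Cd4, the summed histone level was 208 to 684 CPM and Hist1h2ap 47.3 to 178 CPM, and in the 5 labelled OT-II that held Cd8a they were 550 to 804 CPM and 71.6 to 495 CPM. The share of Hist1h2ap was 11.3% to 38.0% in the first 6 and 11.3% to 61.6% in the other 5.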

How the data were processed

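RNA-seq values were taken from 3 deposited tables of estimated counts per gene, covering 82 libraries of sorted mouse OT-I and OT-II cells. The authors made them with bcl2fastq and kallisto 0.46.1 on GRCm38, per the submitters' processing notes, from polyA RNA amplified with SmartSeq v4, per the labels' protocols. The deposited estimated counts are whole numbers. Levels are CPM with TMM factors over the 82 libraries. Each comparison was fitted across all genes with the robust quasi-likelihood test of edgeR 4.0.16 in R 4.3.3, after filterByExpr and with batch as a term in the prophylactic experiment, and p-values were Benjamini-Hochberg adjusted over all genes tested, with a threshold of 0.05. The code was tested on simulated data. Shares of all genes with an unadjusted p under 0.05 were not counted, so counts of members by unadjusted p have no such share beside them. RLE factors, no filter, DESeq2 1.42.0, limma 3.58.1 voom, a replicate block, single batches and left-out libraries were alternatives. Leaving out saline replicate 1 or libraries by their Cd4 level was chosen after seeing the data. Members, lists and tests were chosen with earlier results of these data known. Named are the 8 members with the highest mean CPM, every linker histone, up to 4 members with the largest changes that passed in each comparison, and further members that were picked after their values were seen. Strand use in counting was not given in the sources used here, so antisense overlaps are uncertain. Stem-loops and shared 31-base words come from GENCODE M21 transcripts, and promoters from RefSeq (GRCm38.p6).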

Additional observations from a re-analysis of the deposited data

Results flagged for a closer look

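Samples that stood apart from their group, with a gap to the next library beyond Dixon's 95% critical value, were found in 13 of 120 group and gene combinations examined. The chance rate of about 1 in 20 assumes normal values and independent combinations. Here CPM was not transformed and combinations shared libraries, so that rate is no yardstick. All 13 lay at the high end of their group. Of them 4 were the same library, therapeutic OT-I OVA replicate 2, which had a summed histone level of 1713 CPM, with the next library of its group at 790 CPM, and 97.8 CPM of Hist1h1c, 77.2 CPM of Hist1h1e and 39.0 CPM of Hist1h4d. Another 3 were therapeutic OT-II saline replicate 1, with 102 CPM of Hist1h1e, 28.0 CPM of Hist1h4d and 65.7 CPM of Hist1h4m. Hist1h2ap reached 199.6 CPM in prophylactic OT-I pGal batch 1 replicate 3, where the next library had 107 CPM, and 710 CPM in therapeutic OT-I saline replicate 4, where the next had 304 CPM. Mki67 reached 53.2 CPM in prophylactic OT-II pGal batch 2 replicate 1. Hist2h2aa1 was 48.3 CPM in prophylactic OT-I OVA batch 1 replicate 1, Hist1h2ae was 29.8 CPM in therapeutic OT-II pGal replicate 6 and Hist1h4m was 12.7 CPM in therapeutic OT-II OVA replicate 2.

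By the interaction term of edgeR, OT-I and OT-II cells differed in the response to treatment for Hist2h4 with pGal in the prophylactic experiment, by 1.53 on the log2 scale, and for Hist1h2bc with OVA in the therapeutic experiment, by 2.14.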

How the results depend on the processing

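Numbers of members that passed moved with the processing as follows, and the cause was not tested. DESeq2 gave 6 for prophylactic OT-I pGal against saline, 5 for OT-II pGal against OVA, 16 for OT-II pGal against saline, 26 for therapeutic OT-II OVA against saline, 1 each for pGal against OVA and against saline there, and 5 and 2 for the prophylactic pGal and therapeutic OVA interactions. Limma voom gave 7 for therapeutic OT-II OVA against saline, and 3 and 0 for those interactions. With RLE factors OT-II pGal against OVA gave 1. Without the filter it gave 0, therapeutic OT-II OVA against saline 7, therapeutic saline OT-I against OT-II 1 and both interactions 0. Batch 1 alone gave 0 for OT-I pGal against saline, 17 for OT-II pGal against saline and 0 for the pGal interaction. Batch 2 alone gave 0 for these 3, for OT-I OVA against saline and for OT-II pGal against OVA, and 1 for saline OT-I against OT-II. Without libraries rich in B cell transcripts OT-II pGal against OVA gave 4, pGal against saline 17, the interactions 2 and 0, therapeutic OT-II OVA against saline 5 and saline OT-I against OT-II 1. With libraries as labelled, and without OT-II libraries low in Cd4, therapeutic saline OT-I against OT-II and the OVA interaction gave 0. Without saline replicate 1, therapeutic OT-II OVA against saline gave 4.

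Replicate numbers were not taken to pair samples, since the labels tie none to a mouse and not every same-number pair had deviations correlated above 0.1: 0 of 15 and 3 of 13 between treatments in prophylactic OT-I and OT-II cells, 4 of 15 and 3 of 13 in the therapeutic ones. Between OT-I and OT-II libraries of a treatment it was 7 of 14 prophylactic and 14 of 19 therapeutic pairs (medians 0.0830 and 0.213, other pairs −0.00798 and −0.00177), with 7 of 28 and 19 of 38 libraries correlating best with their own number, which is a hint from the data and not from the design. With the replicate block OT-II pGal against OVA gave 0, therapeutic OT-II OVA against saline 4 and the therapeutic OVA interaction 0, and saline OT-I against OT-II 29 in the prophylactic and 3 in the therapeutic experiment.

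Leaving out single prophylactic libraries gave 1 to 4 for OT-I pGal against saline, 4 to 7 for OVA against saline and 0 to 0 for pGal against OVA. In OT-II cells it gave 5 to 9 for pGal against saline, 0 to 2 for pGal against OVA and 0 to 0 for OVA against saline, and 26 to 33 for saline OT-I against OT-II, 0 to 3 for the pGal and 0 to 0 for the OVA interaction. Of 1240 values for 49 pairs of a named member and a comparison it passed in, 1030 kept their side of the threshold, 210 lost it and 0 changed sign. No summed level moved by more than 1 SD without TMM factors. No pair of libraries in a group was identical. Depth limits members under 1 CPM, and shared sequence limits near-copies.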
